A study of Mus musculus with 48 samples.

Results

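The measurement described here is the interaction between the SE peptide and IFN-γ in RAW264.7 cells, a mouse macrophage line. It asks, gene by gene, whether the peptide changed messenger RNA differently when IFN-γ was present. SE is a synthetic peptide copied from the part of the HLA-DR β chain known as the shared epitope, which alleles tied to rheumatoid arthritis encode. Of the 48 libraries of the series, the 12 that enter the interaction are the letter-labelled libraries of 4 groups, with 3 libraries per group. The PBS group received neither agent, the SE group received SE at 100 µg/ml, the IFN-γ group received IFN-γ at 5 ng/ml, and the SE+IFN-γ group received both. All cells were treated for 72 h with 1 medium change at 48 h. The members were chosen by these labels, with earlier results of these data known. The other letter-labelled libraries belong to the peptides LE and PE, copied from the same region of alleles tied to lupus and to protection from autoimmunity, with and without IFN-γ.

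IFN-γ binds a receptor that activates the kinases JAK1 and JAK2 and, through them, switches on IRF1, antimicrobial GTPases and the genes of antigen presentation. It is known for priming macrophages, so that a further stimulus acting through NF-κB or MAP kinases gives a larger inflammatory response. The SE ligand is known to bind calreticulin at the cell surface. RAW264.7 is a single transformed line, so the data describe that line and not primary macrophages.

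The 12 libraries held 17.1 M to 25.5 M counts (M for mega), with a median of 23.3 M, and 3 counts, taken here as the floor of detection, corresponded to 0.118 to 0.176 counts per mega (CPM). Macrophage markers summed to between 9469 and 14178 CPM in every library. Of the other cell types' markers, 5 of 7 T cell (Cd3d, Cd3e, Cd3g, Cd8a, Trac), 4 of 5 B cell, 5 of 7 fibroblast, 4 of 6 neutrophil and 6 of 6 epithelial markers were at the floor in all 12 libraries. The T cell list summed to 11.6 to 29.4 CPM, nearly all of it Lck, at 10.4 to 28.2 CPM. Dendritic cell markers, of which 1 of 5 (Flt3) was at the floor, summed to 4.01 to 7.87 CPM with IFN-γ and 7.97 to 11.7 with SE and IFN-γ. Their part in the results was not tested. The labels do not say whether the libraries of a group came from separate cultures, and the study calls them biological replicates. The p-values measure the spread between these libraries, which may in part be technical. PBS replicate 1 stood apart from the other 2 PBS libraries, with a chi-square per degree of freedom of 24.1 and 25.9 against 5.89 between those 2. Its mitochondrial share of counts was the highest, at 2.18%. Its part in the results was not tested beyond leaving it out. By the same measure IFN-γ replicate 2 gave 14.1 and 13.4 against the other IFN-γ libraries, which gave 6.93 between them. SE replicate 3 gave 17.3 and 12.3, against 6.56 between the other SE libraries. The HLA-labelled libraries were not used for the interaction because labels and response disagree there. The mean log2 CPM of 19 GTPase genes induced by IFN-γ was 0.448 to 0.535 in the libraries labelled IFN-γ and 0.575 to 0.755 in those labelled PBS, against 4.75 to 5.20 and 0.163 to 0.254 in the letter-labelled libraries. Fitted under the labels as given, the HLA-labelled libraries alone called 0 genes in edgeR, with 534 at an unadjusted p under 0.05. Both label series together called 0 as well, with 88.

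SE and IFN-γ together changed 1043 of 13096 genes tested by more or less than the sum of their separate effects on the log2 scale. A gene was called when edgeR's quasi-likelihood test gave a Benjamini-Hochberg adjusted p under 0.05 and the interaction exceeded 1.5-fold. The called genes made up 7.96% of those tested. In 665 genes (5.08%) the SE effect was more positive with IFN-γ, here named higher, and in 378 (2.89%) it was more negative, here named lower. The difference exceeded 2-fold in 232 of the higher and 80 of the lower genes. At an unadjusted p under 0.05 the count was 4377.

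Both arms of the interaction contributed. With IFN-γ present, SE changed 864 genes (6.6%), of which 588 rose (4.49%) and 276 fell (2.11%). Without IFN-γ it changed 347 genes (2.65%), of which 135 rose (1.03%) and 212 fell (1.62%). Among the 665 higher genes the median log2 SE effect was 0.58 with IFN-γ and -0.32 without it. Among the 378 lower genes it was -0.50 with IFN-γ and 0.29 without it. These arms are parts of the interaction itself and are given as a description.

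**Figure D1:**
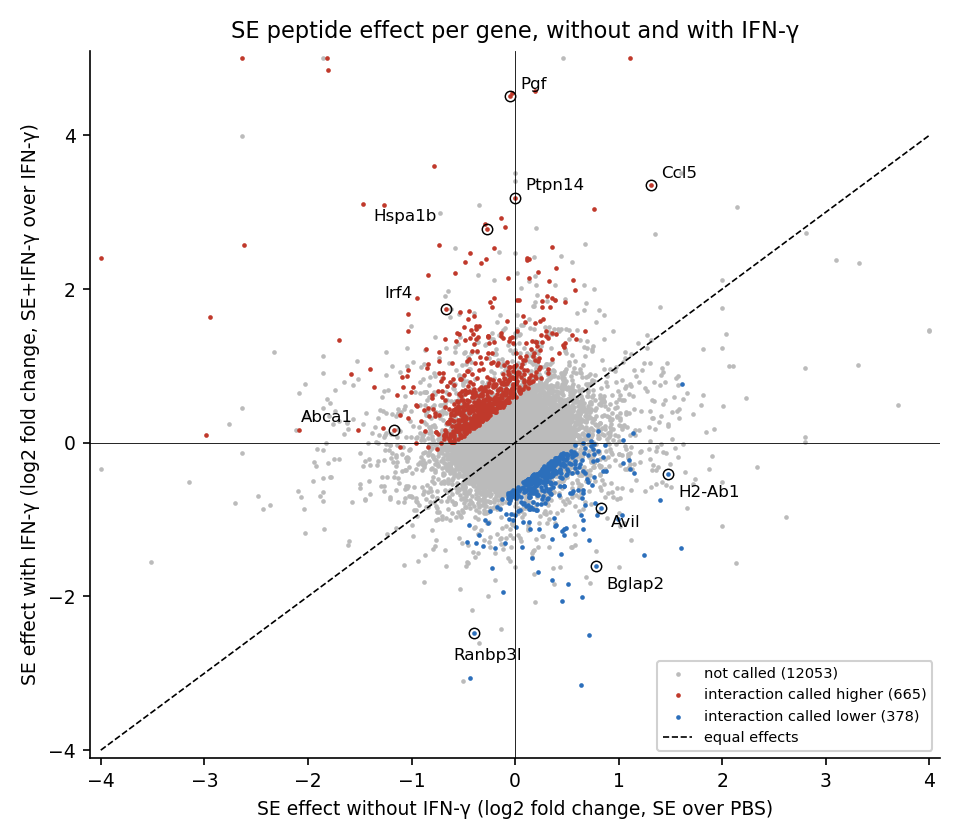
Each point is 1 of the 13096 genes tested, with the log2 SE effect without IFN-γ on the horizontal axis and with IFN-γ on the vertical axis, and 9 genes beyond the axes are drawn at the edge. The 665 genes called higher (red) lie above the dashed line of equal effects and the 378 called lower (blue) below it, with Pgf, Ptpn14 and Hspa1b far above it and near 0 on the horizontal axis.

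The SE arm without IFN-γ carried a trend on gene structure that has to be read beside the counts. Across 12706 genes with a transcript length, the Spearman correlation of its log2 effect was -0.458 with length and 0.375 with GC content. For the arm with IFN-γ these were -0.049 and 0.059, and for the interaction 0.303 and -0.229. Genes are not independent replicates, so no p is given. The higher genes had a median transcript length of 4379 bases and the lower genes of 2039, against 2878 for all genes tested. After the trend was subtracted, 688 of the called genes were still past 1.5-fold (449 higher, 239 lower). Without replicate 1 of all groups the count was 551, and without SE+IFN-γ replicate 1, PBS replicate 1 or SE replicate 3 it was 795, 889 and 903.

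Among genes with a mean of at least 5 CPM, the 3 largest higher interactions were those of Pgf, Ptpn14 and Hspa1b, none of which SE detectably changed without IFN-γ. Pgf, which encodes placental growth factor (chr12:85166635-85177790, minus strand, GRCm38), stood at 0.403, 0.930 and 1.74 CPM in the 3 PBS libraries and at 0.669, 0.294 and 1.93 in the SE libraries. It stood at 0.555, 0.957 and 0.892 CPM with IFN-γ and at 20.9, 15.96 and 17.8 with both. The 3 SE+IFN-γ libraries lay far above all others, whose ranges overlapped, and the interaction was 4.55 ± 0.61 on the log2 scale (standard error, n = 3 libraries per group, edgeR adjusted p = 1.24e-05). Ptpn14, a tyrosine phosphatase of cell junctions, had 22.5, 19.7 and 20.2 CPM with both agents, against 2.46, 1.91 and 2.49 with IFN-γ alone. PBS libraries had 3.63, 4.03 and 4.98 CPM and SE libraries 2.80, 4.36 and 5.58, so SE alone showed no separation from PBS. Its interaction was 3.18 ± 0.34 (edgeR adjusted p = 1.01e-06).

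Hspa1b, an inducible cytosolic HSP70 chaperone, reached 19.1, 15.9 and 12.1 CPM in SE+IFN-γ libraries. The other 9 libraries had between 1.00 and 2.67 CPM, with no separation among PBS, SE and IFN-γ. The interaction was 3.05 ± 0.41 (edgeR adjusted p = 1.24e-05), and reads shared with its near-identical copy Hspa1a make the level uncertain. Dmpk, a serine/threonine kinase, showed 24.6, 19.3 and 25.2 CPM with both agents and 2.55 to 6.10 in the other 9 libraries. Its interaction was 2.27 ± 0.32.

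A second pattern among the largest higher genes was a low level with IFN-γ alone that SE raised. Tnfrsf9 encodes 4-1BB, a costimulatory receptor of the TNF receptor family. It stood at 10.1, 23.3 and 23.8 CPM in PBS, fell to 1.54, 1.95 and 3.05 with IFN-γ, and stood at 11.7, 11.0 and 11.7 with SE and IFN-γ. SE alone gave 15.0, 18.8 and 28.3 CPM, which overlaps PBS. The interaction was 2.29 ± 0.46 (edgeR adjusted p = 0.00096). Mustn1, Tmod1 and Ccng2 were likewise lowered by IFN-γ alone and raised when SE was added to it. Mustn1, a muscle-associated nuclear protein, had 0.951, 0.877 and 0.939 CPM with IFN-γ and 5.87, 4.69 and 5.69 with both (interaction 2.20 ± 0.27). Tmod1, which caps actin filaments, had 2.34, 2.43 and 1.69 CPM with IFN-γ and 11.9, 9.03 and 9.30 with both (1.99 ± 0.24). Ccng2, a cyclin tied to growth arrest, had 2.06, 1.95 and 2.49 CPM with IFN-γ and 6.98, 5.92 and 7.37 with both (2.04 ± 0.39). In these 3 genes the groups with and without SE did not overlap under IFN-γ. Cx3cr1, the fractalkine receptor, had the highest adjusted p of the 12 largest. It had 19.9 to 42.0 CPM in PBS and 14.3 to 24.02 in SE, but 0.422 to 0.758 with IFN-γ and 1.02 to 1.53 with both. Its interaction of 1.91 ± 0.65 had an edgeR adjusted p of 0.0378 and lost its call under 10 of the alternatives.

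**Figure D2:**
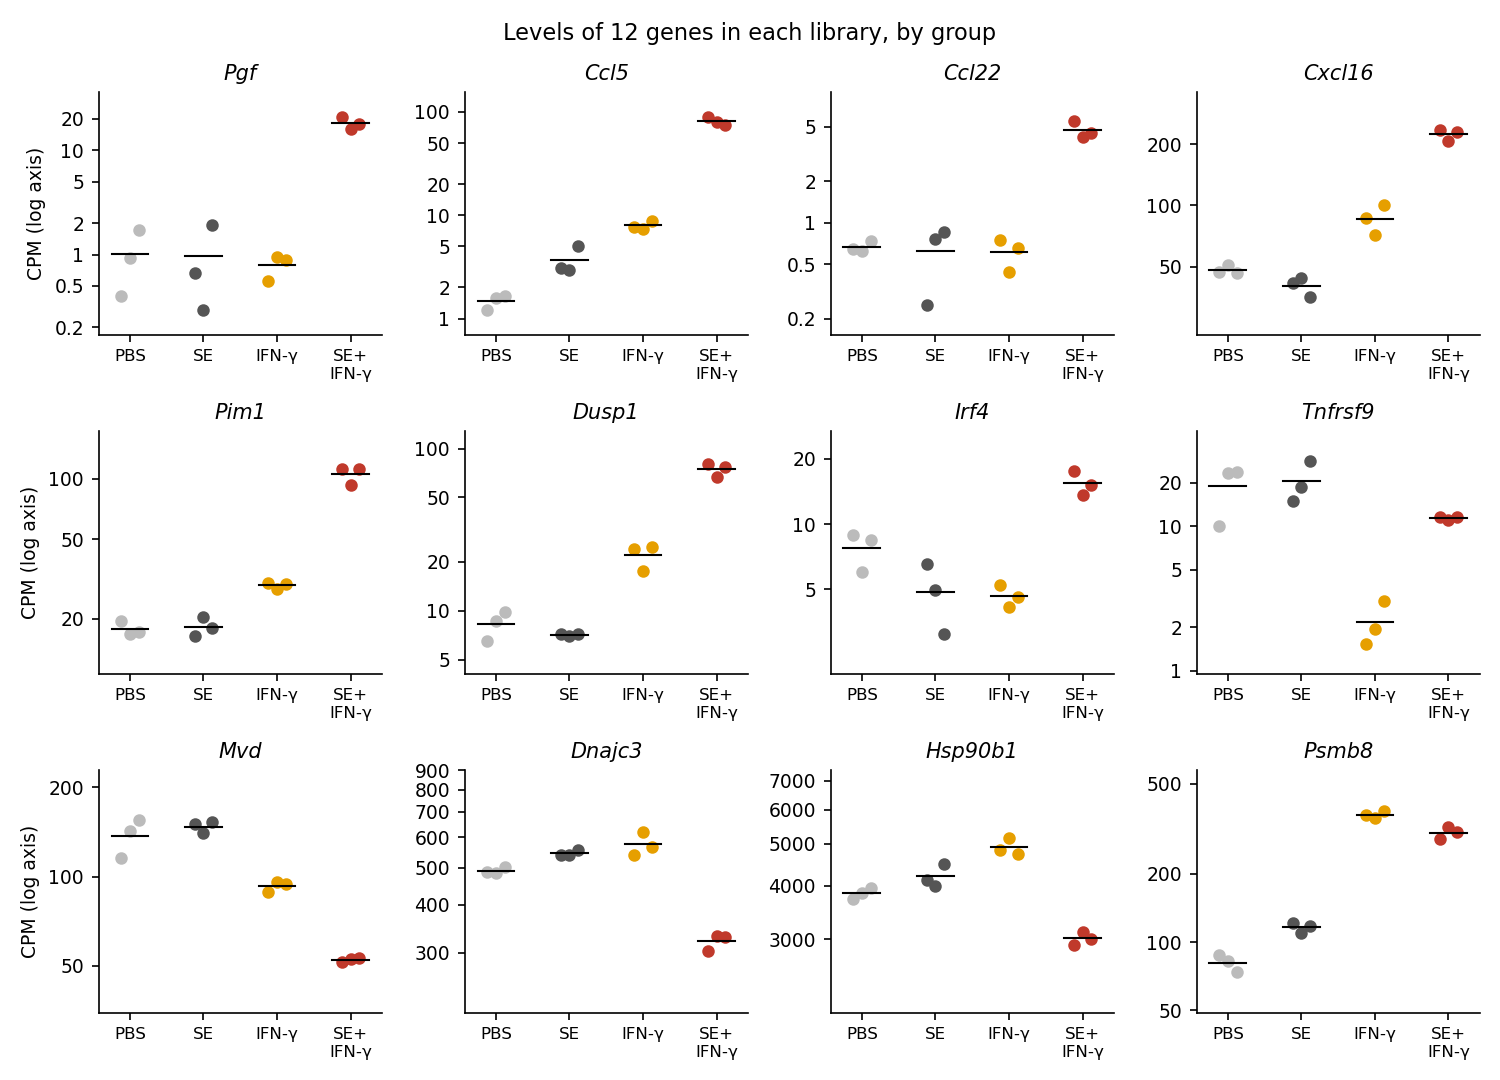
Each panel gives the level of 1 gene in CPM on a log axis for the 3 libraries of each group (points) with the group mean (line). In the panels of Pgf, Ccl5, Ccl22, Cxcl16, Pim1, Dusp1 and Irf4 the 3 SE+IFN-γ libraries lie above all others, in those of Mvd, Dnajc3 and Hsp90b1 they lie below all others, and in that of Tnfrsf9 they lie above IFN-γ alone, below all SE libraries and above 1 of the 3 PBS libraries.

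Secreted factors came next among the higher genes. Of 31 listed cytokine and chemokine genes, 24 were tested, 10 were called higher and 0 lower, where 5.08% and 2.89% of all genes were. The median interaction over the 24 was 0.74, or 1.10 with groups at the floor set to 3 counts, against -0.01 over all genes. In the arm with IFN-γ, SE raised 19 of the 24, where it raised 4.49% of all genes. When libraries were left out, 7 to 11 were called higher for the interaction and at most 1 was called lower.

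Ccl5 (RANTES), which attracts T cells and monocytes, was raised in both arms. It stood at 1.21, 1.59 and 1.64 CPM in PBS, at 3.05, 2.94 and 5.02 with SE, at 7.76, 7.42 and 8.82 with IFN-γ and at 89.9, 79.4 and 74.7 with both. No groups overlapped. The interaction of 2.04 ± 0.28 (edgeR adjusted p = 1.52e-05) means that SE raised it more with IFN-γ (log2 effect 3.35) than without it (1.31). Ccl22, a ligand of CCR4, had 0.753, 0.439 and 0.657 CPM with IFN-γ and 5.46, 4.21 and 4.47 with both, while PBS and SE libraries overlapped between 0.251 and 0.862. Its interaction was 3.07 ± 0.44 (edgeR adjusted p = 3.1e-05). Cxcl16, a chemokine that also acts as a scavenger receptor, had 86.6, 71.1 and 99.8 CPM with IFN-γ and 234, 208 and 229 with both. SE alone gave 41.3, 43.9 and 35.6 CPM, below the 47.1, 51.1 and 46.6 of PBS, although that difference was not called. The interaction was 1.65 ± 0.15. Il1rn, the IL-1 receptor antagonist, rose from 150.1, 99.9 and 169 CPM with IFN-γ to 399, 311 and 383 with both (1.65 ± 0.18).

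The chemokine genes Ccl9 (1.03 ± 0.11), Cxcl2 (1.19 ± 0.31), Ccl3 (0.76 ± 0.14) and Ccl6 (0.73 ± 0.23) were also called higher. Cxcl10, a chemokine that attracts T cells, went from 3.68, 4.11 and 4.51 CPM with IFN-γ to 11.0, 8.55 and 12.2 with both. Its interaction of 1.39 ± 0.48 had an edgeR adjusted p of 0.0416 and lost its call in 10 alternatives, among them the fit of the 4 groups alone. Csf3, which encodes G-CSF, was at the floor in all IFN-γ libraries and at 2.34, 1.58 and 1.29 CPM with both. It was called, and no fold is given because of the floor. Tnf showed 58.8, 50.8 and 63.0 CPM with IFN-γ and 89.5, 84.3 and 85.7 with both. Its rise in that arm was called, but its interaction of 0.45 ± 0.23 was not (edgeR adjusted p = 0.175). Il1b was at the floor in all SE libraries and its interaction was not called.

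Regulators and targets of NF-κB, the transcription factor that drives many of these cytokines, were the next list. Of 27 genes tested 5 were called higher and 0 lower, where 5.08% and 2.89% of all genes were. The median interaction was 0.29. Tnfaip3, which encodes the feedback inhibitor A20, had 9.78, 10.1 and 8.40 CPM with IFN-γ and 25.8, 19.2 and 24.5 with both. PBS (14.5, 17.9, 19.1) and SE (13.9, 19.1, 17.7) overlapped. The interaction was 1.32 ± 0.23 (edgeR adjusted p = 0.000257). Traf1, an adaptor of TNF receptors, stood at 10.3, 11.1 and 11.4 CPM with IFN-γ and at 32.7, 26.0 and 29.7 with both (1.08 ± 0.24). Nfkbiz (1.12 ± 0.27), Map3k8 (0.89 ± 0.24) and Rel (0.94 ± 0.20) completed the called genes. Of these, Rel was called because SE alone lowered it, from 20.02, 17.5 and 17.9 to 12.7, 13.4 and 9.79 CPM. Relb, a subunit of the noncanonical pathway, passed the p threshold but not the fold (0.48 ± 0.13).

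In the list of immediate-early genes and kinases 10 of 29 tested were called higher and 0 lower, where 5.08% and 2.89% of all genes were. The median interaction was 0.28. Leaving out libraries gave 7 to 11 higher and at most 1 lower. Pim1, a survival kinase, is a clear case. It had 29.99, 28.1 and 29.9 CPM with IFN-γ and 112, 92.8 and 113 with both, while PBS (19.4, 16.7, 17.1) and SE (16.3, 20.4, 17.9) overlapped. The interaction was 1.82 ± 0.15 (edgeR adjusted p = 1.01e-07). Dusp1, a phosphatase that turns off MAP kinases, rose from 24.01, 17.6 and 24.6 CPM to 81.0, 67.1 and 76.6 (1.99 ± 0.19). Egr1 rose from 9.31, 5.86 and 8.50 to 25.1, 18.3 and 22.6 CPM (1.86 ± 0.26), and Egr2 had an interaction of 1.63 ± 0.34. Both encode early-growth-response transcription factors. Plk2 (1.37 ± 0.22), Dusp4 (1.161 ± 0.12), Myc (1.35 ± 0.43), Dusp5 (0.81 ± 0.25), Zfp36 (0.81 ± 0.14) and Klf6 (0.64 ± 0.20) were the other called members.

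Windows of the RefSeq promoters (GRCm38.p6) of Cxcl10, Cxcl2 and Tnfaip3 are shown. They were taken, largest interaction first, from the higher genes of the cytokine and NF-κB lists that hold an NF-κB site. Each shown gene thus has a site by choice. Rel was picked by the same rule and is not shown. The 250 bases before each listed start were searched on both strands. At least 1 site of the 10-letter NF-κB motif was found in 8.23% of 27025 genes with a promoter, in 10.6% of the 9408 tested genes that had one, in 12.7% of the 481 higher genes and in 7.84% of the 268 lower genes. It was present in 5 of 15 cytokine genes and 10 of 22 NF-κB genes with a promoter. Of the 15 genes of either list with a site 5 were called higher, and of the 22 without one 5 were as well. Capitals mark the letters of the motif and overlapping matches are merged. The windows lie at chr5:92348953-92349022 (minus strand), chr5:90903773-90903842 (plus) and chr10:19015411-19015452 (minus).
Cxcl10: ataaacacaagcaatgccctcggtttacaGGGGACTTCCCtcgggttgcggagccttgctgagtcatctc
Cxcl2: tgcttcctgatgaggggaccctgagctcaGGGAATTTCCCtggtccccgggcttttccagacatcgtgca
Tnfaip3: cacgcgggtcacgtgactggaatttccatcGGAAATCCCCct
A match is a description of the letters and says nothing about binding in these cells.

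Receptors and enzymes of activated macrophages fell in shorter lists. Their counts are to be read beside the shares of all genes, 5.08% higher and 2.89% lower. Irf4, a lymphoid and macrophage transcription factor, had 5.23, 4.11 and 4.60 CPM with IFN-γ and 17.6, 13.6 and 15.2 with both. SE alone lowered it from 8.90, 6.02 and 8.41 to 6.56, 4.95 and 3.09 CPM, ranges that overlap, and the interaction was 2.40 ± 0.29 (edgeR adjusted p = 4.38e-06). Of 21 TNF receptor family and costimulation genes 4 were called higher and 2 lower. Cd83, a marker of activation, had 39.1, 30.7 and 38.9 CPM with IFN-γ and 110.1, 78.1 and 103 with both (1.56 ± 0.19). Of 17 chemoattractant and Fc receptor genes 3 were called higher and 0 lower, led after Cx3cr1 by Cxcr4 (1.74 ± 0.19) and Ccrl2 (1.53 ± 0.21). Of 19 Toll-like receptor and adaptor genes Irak2, Tlr9 and Ticam1 were called higher, at 0.86 ± 0.14, 0.75 ± 0.19 and 0.70 ± 0.12.

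Among 12 genes of nitric oxide and arginine metabolism 3 were called higher and 1 lower, where 5.08% and 2.89% of all genes were. Acod1, which makes itaconate, went from 79.3, 121 and 80.3 CPM with IFN-γ to 413, 306 and 394 with both (1.41 ± 0.33). Odc1, the first enzyme of polyamine synthesis, went from 170.0, 142 and 181 to 439, 352 and 433 CPM (1.05 ± 0.12). Nos2, the inducible nitric oxide synthase, was not called. It stood at 312, 263 and 313 CPM with IFN-γ and at 433, 376 and 427 with both, groups that do not overlap. PBS libraries spread from 7.49 to 31.3 CPM and SE libraries from 14.3 to 60.7. The interaction was -0.15 ± 0.50 (edgeR adjusted p = 0.872), so a difference of either sign was not detectable at this spread. Hmox1, heme oxygenase, had 1016, 914 and 1169.9 CPM with IFN-γ and 2293, 2167 and 2111 with both (0.72 ± 0.15).

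**Figure D3:**
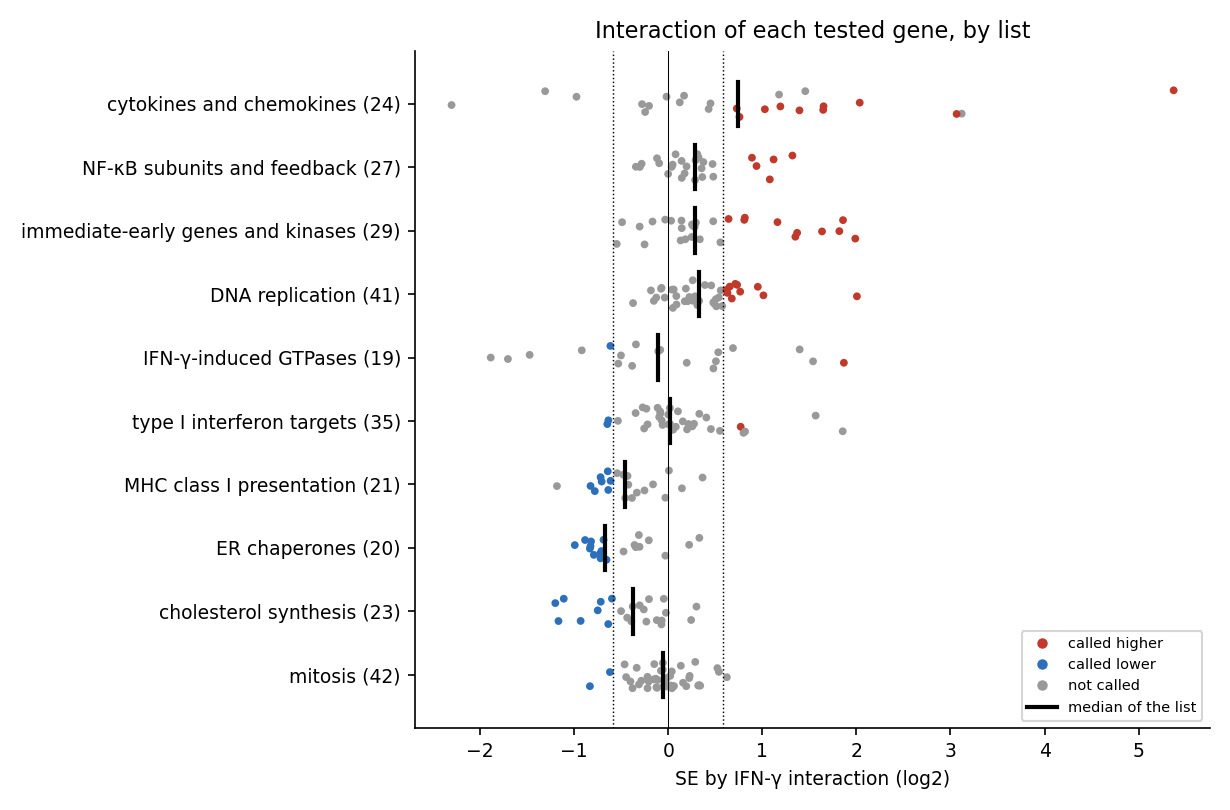
Each point is 1 tested gene, with its SE by IFN-γ interaction on the log2 scale across and its list down, the number of tested genes in brackets, black bars at the list medians and dotted lines at 1.5-fold. Cytokines and chemokines, NF-κB, immediate-early and DNA replication genes have called members on the higher side only. ER chaperones, cholesterol synthesis and MHC class I genes have them on the lower side only.

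On the lower side, the list with the most called genes was that of chaperones of the endoplasmic reticulum (ER). These proteins fold newly made secreted and membrane proteins. Of 20 tested 11 were called lower and 0 higher, where 2.89% of all genes were lower, and the median interaction was -0.67. When libraries were left out, 10 to 12 were called lower, and 10 of the 11 were still past the fold after the length and GC trend was subtracted. The list median was -0.51 for SE with IFN-γ and 0.12 for SE without it.

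Dnajc3, a co-chaperone that also inhibits the kinase PERK (chr14:118937976-118981697, plus strand), had 541, 621 and 566 CPM with IFN-γ and 303, 332 and 329 with both. PBS had 487, 484 and 501 CPM and SE 538, 541 and 555, so SE alone lay slightly above PBS and SE+IFN-γ below every other library. The interaction was -0.99 ± 0.09 (edgeR adjusted p = 1.65e-07). Hsp90b1, which encodes GRP94, had 4832, 5152 and 4739 CPM with IFN-γ and 2916, 3125 and 3012 with both (-0.83 ± 0.10). Calr, which encodes calreticulin, is both an ER chaperone and the known binding partner of SE. It stood at 4301, 4729 and 4438 CPM in PBS, 5542, 5281 and 5839.6 with SE, 4859.7, 5649.6 and 5270.1 with IFN-γ and 3813, 4202 and 3847 with both. The SE and SE+IFN-γ libraries did not overlap, and the interaction was -0.72 ± 0.10 (edgeR adjusted p = 1.24e-05). Creld2 (-0.88 ± 0.16), Pdia3 (-0.83 ± 0.09), Dnajb11 (-0.82 ± 0.09), Manf (-0.79 ± 0.11), Sdf2l1 (-0.73 ± 0.11), Pdia4 (-0.71 ± 0.11), Pdia6 (-0.69 ± 0.09) and Hyou1 (-0.66 ± 0.11) were the other members called. Hspa5, which encodes BiP, passed the p threshold but not the fold (-0.47 ± 0.14). Fkbp11, a secretory-pathway isomerase outside the list, was lower by more than any chaperone in it: 71.7, 90.2 and 69.2 CPM with IFN-γ, 34.1, 45.4 and 41.3 with both, and an interaction of -1.57 ± 0.14.

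The ER stress element, the letters CCAAT and CCACG with 9 free bases between them, is the known control site of many of these genes, and 3 promoters that hold it are shown for that reason. Searched as above, it lay in the promoters of 0.13% of all 27025 genes and of 8 of the 18 listed chaperones with a promoter. Of the 268 lower genes with a promoter 2.24% held it, and of the 481 higher genes 0. Of the 8 chaperones with it 5 were called lower, and of the 10 without it 4 were. Capitals mark the element, which reads on the opposite strand in Creld2 and Hsp90b1. The windows lie at chr14:118937797-118937875 (plus strand), chr15:88819490-88819568 (plus) and chr10:86705503-86705581 (minus) in GRCm38.p6.
Dnajc3: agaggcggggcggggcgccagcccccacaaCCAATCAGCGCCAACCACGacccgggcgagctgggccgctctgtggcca
Creld2: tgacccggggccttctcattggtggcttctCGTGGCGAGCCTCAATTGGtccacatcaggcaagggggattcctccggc
Hsp90b1: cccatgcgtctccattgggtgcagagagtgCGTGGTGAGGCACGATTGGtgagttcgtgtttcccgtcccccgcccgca
The list was drawn up from known ER stress genes, so the share in it is not independent of the element.

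Cholesterol synthesis also had called genes on the lower side only. Of 23 genes tested 8 were called lower and 0 higher, where 2.89% and 5.08% of all genes were. The median was -0.38, and 7 to 8 were called lower when libraries were left out. Mvd, a decarboxylase of the mevalonate pathway, had 88.6, 96.2 and 94.7 CPM with IFN-γ and 51.3, 52.7 and 53.3 with both. PBS (116, 142, 155) and SE (149.97, 140.01, 153) overlapped, and the interaction was -0.93 ± 0.11 (edgeR adjusted p = 2.15e-06). Fdps, which makes farnesyl pyrophosphate, had 20.2, 23.8 and 21.9 CPM with IFN-γ and 10.1, 13.5 and 8.67 with both, and its PBS and SE libraries overlapped between 21.8 and 33.5 (-1.17 ± 0.21). Ebp (-0.75 ± 0.10), Stard4 (-0.72 ± 0.12), Msmo1 (-0.64 ± 0.10) and Dhcr7 (-0.60 ± 0.13) were among the other genes called. The fatty acid desaturases Scd2 and Scd1, from a list of LXR targets in which 3 of 14 genes were lower and 1 was higher, were called lower as well. Scd2 had 425, 418 and 388 CPM with IFN-γ and 118, 133 and 146 with both, an interaction of -1.41 ± 0.21, and Scd1 had -0.98 ± 0.20. The 9-letter sterol regulatory element TCACNCCAC was found in 1 of the 16 cholesterol genes with a promoter and in 1.22% of all genes.

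The 12 largest lower interactions among genes with a mean of at least 5 CPM had varied functions. Bglap2, an osteocalcin gene whose near-identical copies share reads, had 21.8, 34.9 and 21.97 CPM with IFN-γ and 8.62, 10.3 and 7.18 with both, while SE alone raised it from 2.90, 2.92 and 2.83 to 5.68, 6.01 and 3.20. Its interaction was -2.38 ± 0.35. Ranbp3l, a nuclear export factor, fell from 6.93, 6.02 and 6.34 to 1.11, 1.14 and 1.22 CPM when SE was added to IFN-γ (interaction -2.08 ± 0.28). Chst1, a keratan sulfotransferase, fell from 6.97, 10.1 and 6.24 to 1.68, 2.02 and 2.35 (-1.82 ± 0.27). In Avil, an actin-binding protein, the 2 arms had opposite signs. SE raised it from 212, 236 and 188 to 376, 372 and 382 CPM without IFN-γ and lowered it from 259, 400.1 and 229 to 152, 188 and 153 with it (-1.68 ± 0.22). Hsd17b14 (-1.67), Pi16 (-1.61), Acy1 (-1.47), Car6 (-1.31) and Cdsn (-1.25) completed these 12 with H2-Ab1, Fkbp11 and Scd2.

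The GTPases that IFN-γ induces and the type I interferon targets were called at shares near those of all genes. Over all genes these were 5.08% higher and 2.89% lower. Not all type I interferon targets rose with IFN-γ alone, as Oas2 was lower than in PBS and Rsad2 was higher. Some GTPases, such as Gbp6, Gbp10 and Iigp1, were at the floor in all PBS and SE libraries, so their interaction was poorly measured. Of 19 GTPase genes 1 was called higher and 1 lower, with a median of -0.11. Gbp2b had 134, 117 and 136 CPM with IFN-γ and 288, 227 and 276 with both, and was below 1 CPM in all PBS and SE libraries (interaction 1.87 ± 0.51). Gbp2 went from 152, 132 and 150 CPM with IFN-γ to 318, 264 and 302 with both, but its interaction was not called. Ifi47 was called lower at -0.61 ± 0.21. Of 35 type I interferon targets 1 was called higher and 2 lower, with a median of 0.02. Yet 12 of them rose with SE in the arm with IFN-γ and 4 without it, where 4.49% and 1.03% of all genes did. Irf7, a regulator of that pathway, rose in both arms. It went from 69.5, 80.0 and 92.3 to 128, 123 and 157 CPM without IFN-γ and from 156, 126 and 170.4 to 365, 362 and 352 with it, and its interaction of 0.50 ± 0.15 passed the p threshold but not the fold. Among 23 receptor, STAT and IRF genes Irf4 and Jak1 (0.67 ± 0.13) were called higher and Irf1 lower. Irf1, a transcription factor that IFN-γ induces early, had 139, 185 and 147 CPM with IFN-γ and 95.4, 100.0 and 108 with both (-0.80 ± 0.13).

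In antigen presentation the class I pathway held most of the called genes. Of 21 MHC class I pathway genes 7 were called lower and 0 higher, where 2.89% and 5.08% of all genes were. The median was -0.46, and 5 to 9 were called lower when libraries were left out. The list's median log2 SE effect was -0.12 with IFN-γ and 0.30 without it, and after the length and GC trend was subtracted 3 of the 7 remained past the fold. Psmb8, an immunoproteasome subunit, stood at 87.4, 82.4 and 74.1 CPM in PBS and at 121, 109.8 and 118 with SE. It had 363, 353 and 379 CPM with IFN-γ and 285, 321 and 307 with both, and no groups overlapped (-0.78 ± 0.11). Psmb10 (-0.71 ± 0.11), H2-T23 (-0.64 ± 0.11), Tapbpl (-0.64 ± 0.12) and Psme2 (-0.61 ± 0.10) were called with Pdia3 and Calr, which are also ER chaperones. Of 14 MHC class II genes 2 were called lower and 0 higher, with a median of -0.25 that was -0.06 after the trend was subtracted, when 1 of the 2 was still past the fold. Cd74, the invariant chain, was lower at -0.78 ± 0.15, and H2-Ab1 at -1.88 ± 0.43. H2-Ab1 had 662, 523 and 743 CPM with IFN-γ and 450.3, 499 and 505 with both, but 0.266 to 0.483 in PBS and 0.883 to 1.01 in SE, so its interaction rests on levels close to the floor.

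To sort genes by their IFN-γ response without using the libraries of the interaction, the IFN-γ effect in the PE peptide libraries was taken. It called 1539 genes higher (11.8%) and 1171 lower (8.94%). Of the 1539 IFN-γ-raised genes 135 (8.77%) were called higher for SE by IFN-γ and 69 (4.48%) lower. Of the 1171 IFN-γ-lowered genes 77 (6.58%) were higher and 55 (4.70%) lower, and of the other 10386 genes 453 (4.36%) and 254 (2.45%). The median interaction was 0.05, -0.05 and -0.01 in these 3 classes. Called genes of both directions were present in every class.

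Of the cell cycle lists, DNA replication had more called genes than mitosis, and its count rested on PBS replicate 1. Of 41 DNA replication genes 10 were called higher and 0 lower, where 5.08% of all genes were higher. The list median was 0.33. Lig1, the replicative DNA ligase, had 42.1, 38.9 and 44.2 CPM with IFN-γ and 85.5, 82.8 and 85.2 with both (0.95 ± 0.19), and Mcm6, part of the replicative helicase, had 34.8, 43.0 and 39.1 and then 74.7, 66.1 and 75.2 (0.73 ± 0.23). Ccne2, the cyclin of entry into S phase, had an interaction of 2.01 ± 0.51. PBS replicate 1 was the highest PBS library for these 3 genes, and without it 3 of the 41 were called, with 2 to 15 over all leave-outs. Of 42 mitosis genes Ccnb2 (-0.83 ± 0.22) and Cdc20 (-0.62 ± 0.22) were called lower and 0 higher, where 2.89% of all genes were lower. Leaving out libraries gave 0 (without replicate 1) to 5 lower and 0 to 2 higher. SE lowered 17 of the 42 with IFN-γ and 11 without it, where it lowered 2.11% and 1.62% of all genes. The list medians of these effects were -0.46 and -0.44. Bulk counts cannot tell fewer cells in a phase from less RNA per cell.

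Counts of housekeeping and other lists are to be read beside the shares of all genes, 5.08% higher and 2.89% lower. No list was tested as a set. Of 86 cytosolic ribosomal protein genes 1 was called lower, with a median of -0.24, and of 93 respiratory chain genes 5 were called lower and 1 higher, with a median of -0.22. After the length and GC trend was subtracted these medians were -0.04 and -0.08. Adgre1, which encodes the macrophage marker F4/80, was the only one of 10 macrophage markers called (0.93 ± 0.11). Of 21 osteoclast genes Atp6v0d2 (0.78 ± 0.16) and Src (0.68 ± 0.13) were higher, and of 20 NRF2 targets Hmox1 and Slc7a11 (0.73 ± 0.15) were. Of 23 targets of ATF4 and CHOP, the factors of the integrated stress response, 1 was higher and 2 were lower, and Ddit3, which encodes CHOP, was not called (-0.47 ± 0.22, edgeR adjusted p = 0.135). Lysosomal proteases, inflammasome and cell death genes and glycolysis each had 1 gene higher and 0 lower, among 18, 21 and 24 tested. Of 16 genes that the study names or measures 7 were higher and 0 lower. The study named these 7 from RNA-seq of this series, so they are no independent evidence of its direction. Other listed genes were measured elsewhere by the study, such as Irf7, Ifi44 and Dnase1l3 by PCR in macrophages of transgenic mice. The proteins of Hspa5 and Ddit3 were measured by immunoblot, and the RNA of Hspa5 also by PCR in RAW264.7 cells with IFN-γ.

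The same interaction was measured for LE and PE, which share the PBS and IFN-γ libraries with SE, so the values are set side by side and the tests are of the difference, in which the shared libraries cancel. SE and PE differed in 596 genes (4.55%), 373 higher (2.85%) and 223 lower (1.7%) for SE. SE and LE differed in 116 genes (0.886%), 29 higher (0.221%) and 87 lower (0.664%). The second count is fragile. In edgeR it was 0 without replicate 1 of all groups, where 1781 genes had an unadjusted p under 0.05. It was 0 again without replicate 2, where 1332 did, and 12 without replicate 3. Leaving out single libraries gave 38 to 154.

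**Figure D4:**
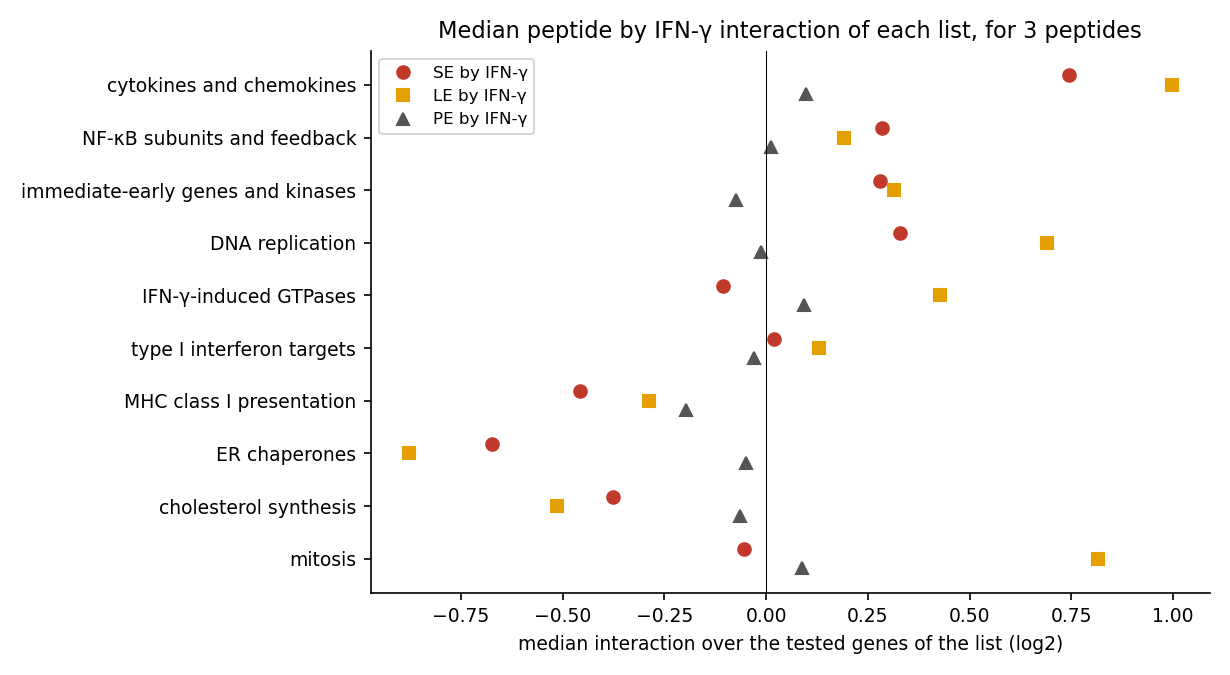
Markers give the median interaction with IFN-γ on the log2 scale over the tested genes of 10 lists, for SE (circles), LE (squares) and PE (triangles). PE lies between -0.20 and 0.10 in all 10 lists, SE and LE lie on the same side of 0 for cytokines, ER chaperones and cholesterol synthesis, and mitosis is -0.06 for SE and 0.81 for LE.

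For cytokines and chemokines the median interaction was 0.74 for SE, 1.00 for LE and 0.10 for PE. The difference between SE and PE was called higher in 7 of 24 genes and lower in 0, where 2.85% and 1.7% of all genes were. For ER chaperones the medians were -0.67, -0.88 and -0.05, and 8 of 20 differed from PE, all lower, where 1.7% of all genes were lower. Pim1 had interactions of 1.82 for SE, 1.80 for LE and 0.10 for PE, a difference of 1.72 ± 0.15 from PE (edgeR adjusted p = 9.41e-08) and of 0.02 ± 0.15 from LE.

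Few named genes differed between SE and LE. Hspa1b had an interaction of 3.05 for SE, 0.55 for LE and 1.14 for PE, and SE exceeded LE by 2.50 ± 0.41 (edgeR adjusted p = 0.00426). Ranbp3l had -2.08, -0.53 and -0.31, a difference from LE of -1.55 ± 0.28 (edgeR adjusted p = 0.00703). Cxcr4, the receptor of CXCL12, was the reverse case, at 1.74 for SE, 2.85 for LE and 0.08 for PE. In the mitosis list SE was lower than LE in 22 of 42 genes and higher in 0, where 0.664% and 0.221% of all genes were. The count of lower genes was 0 to 25 over the leave-outs. All 22 were past the fold after the length and GC trend was subtracted. Aspm, a spindle pole protein, had interactions of -0.34 for SE and 0.94 for LE.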

How the data were processed

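RNA of RAW264.7 cells was read as 100-base single-end reads from a stranded mRNA kit with 200 ng input. The authors made the deposited counts with featureCounts from uniquely aligned reads and the GENCODE M12 annotation on GRCm38.p5, without normalization. The aligner and the strand setting are not given in the sources used here, so overlapping and antisense genes may share reads. The processing notes name DESeq2 1.16.1 in R 3.4.1 for the authors' own tests.

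Of 49568 genes, those passing edgeR's expression filter were kept, which left 13096. Counts of the 24 letter-labelled libraries (8 groups of 3) were scaled by TMM and fitted with edgeR 4.0.16 in R 4.3.3 by the quasi-likelihood method, and the interaction was a contrast of 4 group coefficients. A gene was called at a Benjamini-Hochberg adjusted p under 0.05, adjusted over all genes tested, and a change over 1.5-fold. Values after ± are standard errors derived from the test, as the absolute log2 value divided by the square root of edgeR's F statistic. The spread behind them was estimated over all 24 letter-labelled libraries. CPM were computed from library totals scaled by TMM. The fit was tested on simulated data. Depth was 17.1 M to 25.5 M counts per library. Gene positions were matched by symbol (47114 genes). Promoters came from the RefSeq table (GRCm38.p6).

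Named genes were up to 12 called genes per direction with the largest interaction among those with a mean of at least 5 CPM and the same sign in all 3 replicate numbers, called members of the lists, and 16 genes of the study. The members and lists were chosen with earlier results of these data known. Other genes named for a comparison (Aspm) were chosen after their values were seen. Date-like gene names (26) were not named. Some genes are not reported here. Alternatives were DESeq2 1.42.0, its size factors, no expression filter, the 4 groups alone, protein-coding genes alone, a replicate block, the HLA-labelled libraries, subtraction of length and GC trends, other fold minimums and each library or replicate number left out. Same-numbered libraries did not deviate together throughout, as 10 of 18 pairs had a correlation over 0.1, so the numbers were not taken as pairs.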

Additional observations from a re-analysis of the deposited data

Results flagged for a closer look

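The SE effect with IFN-γ differed from that without it in 1043 of 13096 genes by the test of the difference itself (edgeR's quasi-likelihood interaction). The SE and PE interactions differed in 596 genes by the same kind of test, with 324 to 664 when replicate numbers or single libraries were left out. The SE and LE interactions differed in 116 genes, a count that was 0 to 12 when a replicate number was left out of all groups.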

How the results depend on the processing

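The interaction called 1043 genes. It called 962 with the 4 groups alone, 1028 with DESeq2, 1045 with its size factors, 1150 with no expression filter and 960 among protein-coding genes. With a replicate block it called 1130, of which 1039 were among the 1043, and the numbers were not shown to pair the libraries (correlations of same-numbered libraries from -0.17 to 0.45). With no fold minimum the count was 2594 and with a 2-fold minimum 312. Subtracting the length and GC trends, which is done on the estimates without a new test, left 688 genes, 239 of them lower, and 148 of the genes SE changed without IFN-γ. The HLA-labelled libraries alone and both series together gave 0 in edgeR (534 and 88 genes at an unadjusted p under 0.05), and the labels conflict there with the IFN-γ response. The SE minus LE count was 179 with DESeq2 and 235 with no expression filter.

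Leaving out a replicate number or a single library gave 551 (without replicate 1) to 1224 genes for the interaction, 305 to 801 for higher and 246 to 446 for lower genes. It gave 59 (without replicate 1) to 711 (without replicate 2) for SE without IFN-γ, 643 to 886 for SE with IFN-γ, 0 to 154 for SE minus LE and 324 (without replicate 3) to 664 for SE minus PE. The cause of these differences was not tested. For 37 named genes, 527 of the leave-out values and 220 of the other values kept direction and call, of 776 in all. Cx3cr1 and Cxcl10 lost the call in 10 settings each, and none of these values reversed. Genes not called in the main fit gained a call when libraries were left out: Irf7 in 4 settings, Hspa5 in 2, and Ddit3, Dnase1l3 and Il1b in 1 each. With 3 libraries per group and a floor of 0.118 to 0.176 CPM, genes such as Csf3 and Il1b have no usable fold.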
